A study of Mus with 6 samples.

Results

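Genes that mark the early oligodendrocyte lineage, 10 in number, were followed across 6 mouse brain libraries. They were chosen by name: 4 genes of oligodendrocyte precursor cells (Pdgfra, Cspg4, Vcan and C1ql1) and 6 genes of the committed stage (Gpr17, Bmp4, Enpp6, Neu4, Bcas1 and Fyn). All 10 were found among the 54532 genes of the table, and all 10 were among the 16155 genes tested. The libraries came from male mice, by their labels, and from tissue labelled as basolateral amygdala. They comprised 3 wild-type mice (WT) and 3 mice labelled CNTNAP4-KO (KO), a knockout of the neuronal adhesion protein gene Cntnap4. For age, strain, the deleted part of Cntnap4 and any treatment of these mice, nothing is given in the labels used here. The series title names Lactobacillus reuteri, and no sample labelled as treated with it was analysed here.

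Oligodendrocyte precursor cells divide and persist in the adult brain, and they respond to platelet-derived growth factor through the receptor that Pdgfra encodes. When a precursor commits to differentiation it loses Pdgfra and Cspg4 and passes through a short-lived stage marked by Gpr17, Enpp6 and Bcas1, before the myelin genes of the mature cell are switched on. Several of these genes are also used elsewhere: Pdgfra in fibroblasts, Cspg4 in pericytes, Bmp4 in vessels and Fyn in neurons.

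Expression is given as FPKM, fragments per kilobase of gene length relative to library size, so levels of different genes can be compared. Values of a group are listed in the order of replicates 1, 2 and 3. Libraries held 17647556 to 20813211 reads in genes. In WT, Cntnap4 measured 2.03, 3.59 and 4.91 FPKM, and in KO 1.61, 1.00 and 1.48. The library labelled KO replicate 1 had 43.0 FPKM of Xist, the RNA that silences an X chromosome in females, and 0 reads on 4 Y-linked genes, which goes against its male label. KO replicate 2 stood apart in neuronal genes. Its 5 markers of pallial excitatory neurons summed to 125 FPKM, against 29.4 and 32.3 in the other KO libraries and 9.95 to 11.3 in WT. Its 5 hypothalamic neuron markers summed to 2.66 FPKM, against 341 and 1068 in KO and 486 to 953 in WT. Most of the hypothalamic sums came from Avp and Oxt. In WT replicate 1 these measured 783 and 167 FPKM. There Otp (2.01) and Pmch (1.52) lay below the pallial markers Slc17a7 (5.69) and Tbr1 (2.95). Otp was also low in KO replicate 2, at 0.0575 FPKM against 2.17 and 3.12 in KO and 2.01 to 2.66 in WT. Oxt was low in KO replicate 3 as well (12.5 FPKM, against 133 to 209 in WT). Hcrt, near the floor, was not lowest in KO replicate 2. The pallial difference was not limited to KO replicate 2. All 5 pallial markers were higher in every KO library than in every WT library, as were 11.8% of all tested genes. In WT, Slc17a7 measured 5.37 to 6.42 FPKM and Avp 350 to 783 FPKM, against 94.3 and 2.20 in KO replicate 2. Which libraries match the basolateral amygdala label was not tested, so KO replicate 2 need not be the one that departs from it. The values below are for the tissue pieces as dissected, and the part of regional content in them was not tested.

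In WT libraries the members spanned a wide range of levels. Bcas1, which encodes a protein of early myelinating cells, was highest at 52.9 ± 9.61 FPKM (SD, n = 3, as for all means here). The kinase gene Fyn followed at 26.1 ± 1.17, then C1ql1 at 13.1 ± 1.54, Gpr17 at 11.3 ± 1.77 and Pdgfra at 8.60 ± 0.940 FPKM. The other 5 lay below these. Neu4 measured 3.32 ± 0.686, Cspg4 2.40 ± 0.277, Vcan 2.02 ± 0.273, Enpp6 1.78 ± 0.357 and Bmp4 1.29 ± 0.408 FPKM. Among neighbours in this order, the WT values of C1ql1 and Gpr17 overlapped, as did each neighbouring pair from Neu4 down to Bmp4. Bcas1, Fyn and Pdgfra did not overlap with the next gene below them, and Gpr17 did not overlap with Pdgfra. Mean depth over the 6 libraries ran from 52.8 reads for Bmp4 to 3609 reads for Bcas1.

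**Figure D1:**
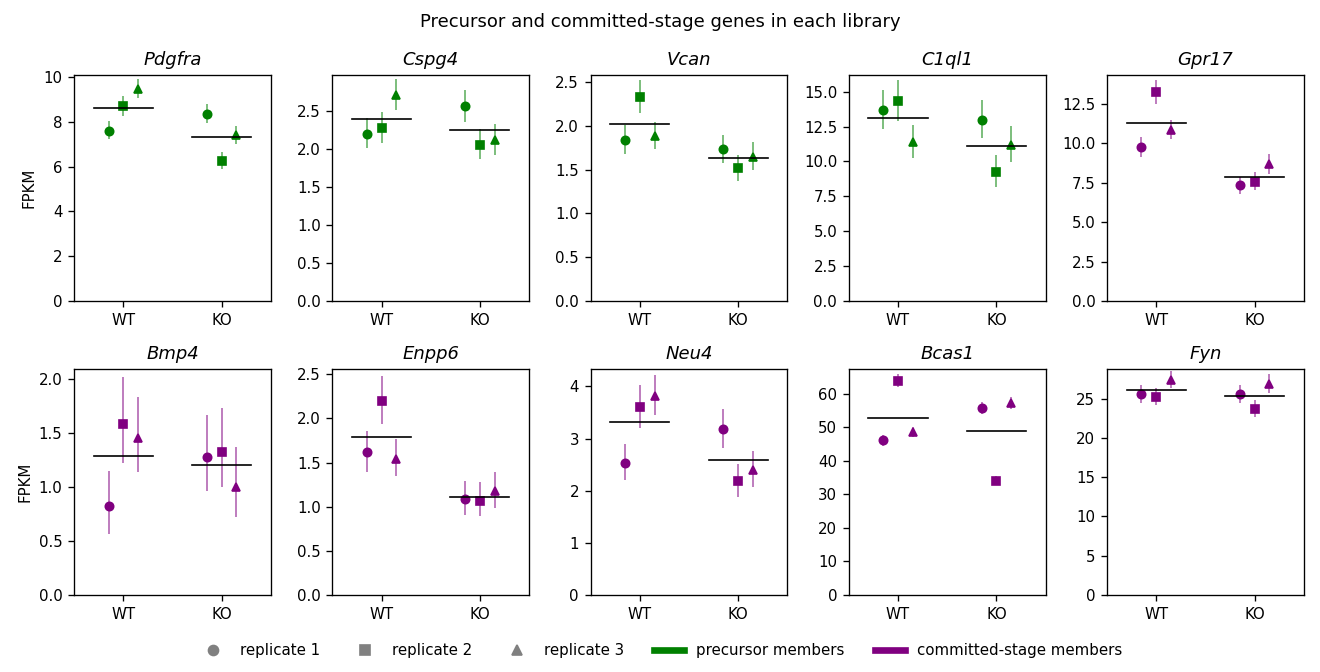
FPKM of the 10 genes in each library (vertical axes from 0), with WT on the left and KO on the right of each panel. Points are libraries, thin bars their 95% Poisson intervals, which cover counting error only, and black lines group means. Vcan, Gpr17 and Enpp6 are the genes whose KO values all lie below the WT values.

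No member passed the test across all genes. The test was limma on log2(FPKM + 0.5) with Benjamini-Hochberg adjustment at 0.05, and 0 of 10 members passed, where 0.0124% of all tested genes did. All 10 members had a log2 difference (KO minus WT) below 0, as did 48.5% of all tested genes. At an unadjusted p under 0.05, 2 of 10 were lower in KO, Gpr17 and Enpp6, against 6.85% of all tested genes. All 3 KO values lay below all 3 WT values for 3 of 10, Vcan, Gpr17 and Enpp6, against 10.8% of all tested genes. No member was higher in KO by either measure, whereas 8.36% and 11.8% of all tested genes were. In whole tissue, fewer cells of a type and less RNA per cell cannot be told apart.

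Among the precursor genes, Pdgfra (ENSMUSG00000029231, chromosome 5, 75152292 to 75198215, plus strand, GRCm38) encodes the growth factor receptor that drives precursor division. Its FPKM values were 7.62, 8.70 and 9.49 for WT and 8.37, 6.26 and 7.41 for KO. The groups overlapped, since KO replicate 1 lay above WT replicate 1. The log2 difference was -0.22 ± 0.12 (SE, as for all log2 differences here), with a limma adjusted p of 0.445.

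Cspg4 (ENSMUSG00000032911, chromosome 9, 56865033 to 56899870, plus strand) encodes the NG2 proteoglycan of the precursor surface. The WT libraries had 2.20, 2.28 and 2.72 FPKM, and the KO libraries 2.56, 2.06 and 2.12. These values overlapped, and the log2 difference of -0.08 ± 0.12 was within its error (limma adjusted p = 0.790).

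Vcan (ENSMUSG00000021614, chromosome 13, 89655312 to 89742509, minus strand) encodes versican, a matrix proteoglycan that binds hyaluronan. In WT it stood at 1.84, 2.33 and 1.89 FPKM, and in KO at 1.74, 1.52 and 1.65. Every KO library lay below every WT library, by a narrow margin between WT replicate 1 and KO replicate 1, whose 95% Poisson intervals overlapped (1.68 to 2.01 and 1.58 to 1.90 FPKM). The log2 difference was -0.24 ± 0.12 (limma adjusted p = 0.399).

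C1ql1 (ENSMUSG00000045532, chromosome 11, 102939264 to 102946688, minus strand) encodes a secreted C1q-like protein, which is also made by some neurons. Levels were 13.7, 14.3 and 11.4 FPKM in the WT libraries, and 12.96, 9.26 and 11.2 in the KO libraries. The groups overlapped, with KO replicate 2 lowest, and the log2 difference was -0.23 ± 0.14 (limma adjusted p = 0.465).

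Among the committed-stage genes, Gpr17 had the smallest p of all members. Gpr17 (ENSMUSG00000052229, chromosome 18, 31942997 to 31949636, minus strand) encodes an orphan receptor related to purine and leukotriene receptors, switched on in cells leaving the precursor state. The WT libraries had 9.76, 13.2 and 10.8 FPKM, from 935, 1235 and 1225 reads. The KO libraries had 7.32, 7.57 and 8.67 FPKM, from 715, 712 and 798 reads. All KO values lay below all WT values, although the Poisson intervals of WT replicate 1 (9.14 to 10.4 FPKM) and KO replicate 3 (8.08 to 9.29 FPKM) overlapped. KO stood at 69.7% of WT, a log2 difference of -0.49 ± 0.12 (limma adjusted p = 0.207). Over the alternatives its log2 difference lay between -0.58 and -0.37 and its adjusted p between 0.124 and 0.479.

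Enpp6 (ENSMUSG00000038173, chromosome 8, 46986887 to 47096762, plus strand) encodes a choline-specific phosphodiesterase that marks newly forming oligodendrocytes. It measured 1.61, 2.19 and 1.54 FPKM in WT, from 191, 253 and 215 reads. In KO it measured 1.09, 1.07 and 1.18 FPKM, from 131, 124 and 134 reads. The KO libraries lay close together and below all WT libraries, although the Poisson interval of KO replicate 3 (0.988 to 1.40 FPKM) overlapped those of WT replicate 1 (1.39 to 1.86) and WT replicate 3 (1.34 to 1.76). KO stood at 62.3% of WT, the lowest share among the 10 members, with a log2 difference of -0.49 ± 0.14 (limma adjusted p = 0.229). Over the alternatives the adjusted p lay between 0.132 and 0.507, and the log2 difference between -0.70 and -0.37.

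Neu4 (ENSMUSG00000034000, chromosome 1, 94020451 to 94028334, plus strand) encodes a sialidase, an enzyme that removes sialic acid from glycans. Its FPKM values were 2.54, 3.60 and 3.82 for WT and 3.18, 2.18 and 2.40 for KO. The groups overlapped through KO replicate 1 and WT replicate 1, and the log2 difference was -0.30 ± 0.18 (limma adjusted p = 0.452).

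The remaining committed-stage genes had smaller differences, each within its standard error. Bcas1 (ENSMUSG00000013523, chromosome 2, 170346991 to 170427845, minus strand) had 46.1, 63.9 and 48.6 FPKM in the WT libraries and 55.7, 34.1 and 57.3 in the KO libraries. KO replicates 1 and 3 lay inside the WT range and KO replicate 2 well below it, for a log2 difference of -0.13 ± 0.22 (limma adjusted p = 0.814). Fyn (ENSMUSG00000019843, chromosome 10, 39368855 to 39565381, plus strand), a Src family kinase that acts in myelination and at synapses, had 25.6, 25.3 and 27.5 FPKM in the WT libraries and 25.6, 23.7 and 26.9 in the KO libraries. Its groups overlapped, and its log2 difference was -0.04 ± 0.08 (limma adjusted p = 0.837), with the smallest error among the members.

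Bmp4 (ENSMUSG00000021835, chromosome 14, 46383520 to 46390669, minus strand) encodes a secreted bone morphogenetic protein. The WT libraries had 0.820, 1.58 and 1.45 FPKM, and the KO libraries 1.28, 1.33 and 1.00, from 34 to 71 reads per library. WT replicate 1 was its lowest library, with a Poisson interval of 0.568 to 1.15 FPKM. At this depth no difference was detectable (log2 -0.05 ± 0.20, limma adjusted p = 0.932).

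**Figure D2:**
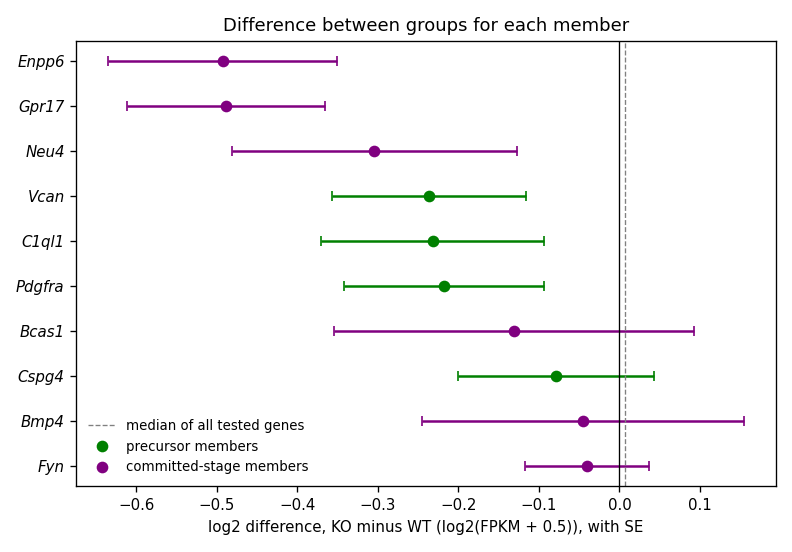
Log2 difference between KO and WT for each gene (horizontal axis, KO minus WT, log2(FPKM + 0.5) values), with bars for the standard error. Precursor genes are green, committed-stage genes purple, and the dashed line is the median of all tested genes. Enpp6 and Gpr17 lie near -0.49 and the bars of Bcas1, Cspg4, Bmp4 and Fyn cross 0.

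The 2 stages had like medians, and the committed-stage genes differed more among themselves. The median log2 difference was -0.22 over the 4 precursor genes and -0.22 over the 6 committed-stage genes, beside 0.01 over all tested genes. Members were picked with earlier results known, so these medians carry no test. The committed-stage median covers a wide spread, from -0.49 for Enpp6 and Gpr17 to -0.04 for Fyn, whereas the precursor genes ran from -0.24 to -0.08. Averaged over genes within each library, the committed stage lay above the precursor genes by log2 0.41, 0.65 and 0.55 in WT replicates 1 to 3 and by 0.39, 0.51 and 0.53 in KO replicates 1 to 3. These values overlapped, with means of 0.53 ± 0.12 in WT and 0.48 ± 0.07 in KO.

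Set against Pdgfra in the same library, Gpr17 stood at a ratio of 1.28, 1.52 and 1.14 in WT and 0.875, 1.21 and 1.17 in KO. The ratio of Enpp6 to Pdgfra was 0.212, 0.252 and 0.163 in WT and 0.130, 0.171 and 0.159 in KO. Each ratio overlapped between the groups, in the case of Enpp6 through WT replicate 3 and KO replicate 2. The ratio of Bcas1 to Pdgfra was 6.17 ± 1.11 in WT and 6.61 ± 1.14 in KO, and that of Fyn to Pdgfra 3.05 ± 0.268 and 3.49 ± 0.383.

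The 16 genes of mature oligodendrocytes, the next stage of the lineage, had a larger median log2 difference of -0.53, and 15 of 16 were below 0. The 4 with the smallest p were the protease gene Klk6 (-1.30), Opalin (-1.07), Ermn (-0.72) and Aspa (-0.67), and 0 of 16 passed the adjusted threshold. All KO values lay below all WT values for 10 of 16, against 10.8% of all tested genes. The rest overlapped between groups, among them Mbp (-0.15), Mobp (-0.22) and Apod (0.11). Their mean log2 level lay above the precursor mean by 3.00, 3.27 and 3.05 in WT replicates 1 to 3 and by 2.75, 2.60 and 2.95 in KO replicates 1 to 3. Here every KO library lay below every WT library, by a narrow margin between WT replicate 1 (3.00) and KO replicate 3 (2.95). The distance between mature and committed-stage means was 2.57 ± 0.06 in WT and 2.29 ± 0.17 in KO, and again the groups did not overlap. The mature genes, too, were picked with earlier results of these data known, so these list scores were not tested.

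**Figure D3:**
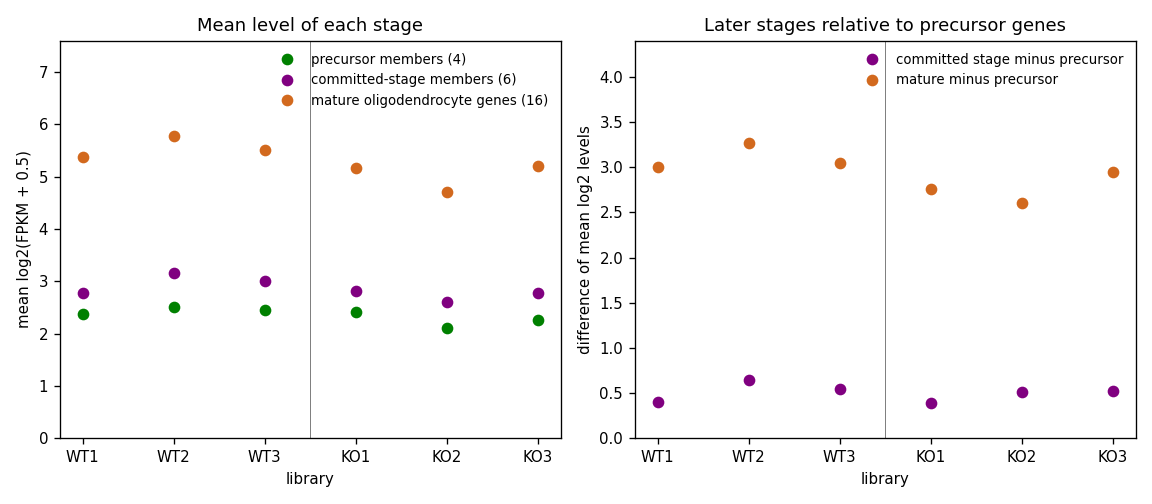
Left, mean log2(FPKM + 0.5) of precursor, committed-stage and mature genes in each library. Right, the committed-stage and mature means after subtracting the precursor mean of the same library. The committed-stage values overlap between WT and KO (0.41 to 0.65 and 0.39 to 0.53). The mature values do not, by a narrow margin (3.00 to 3.27 and 2.60 to 2.95).

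KO replicate 2 weighed on the result for most members. It was the lowest of the 6 libraries for 8 of 10 genes, all but Gpr17 and Bmp4, and for 21% of all tested genes. Against the mean of the other KO libraries its log2 difference was -0.72 for Bcas1, -0.36 for C1ql1 and -0.31 for Pdgfra, but -0.07 for Gpr17, -0.06 for Enpp6 and 0.16 for Bmp4. The lineage transcription factors were also low in that library, with a median of -0.62 over 7 genes, as were the mature genes at -0.45 over 16 and the 15 further committed-stage genes at -0.32. The 14 further precursor genes were not, with a median of 0.05 and 6 of 14 below 0. Low values there were not limited to the lineage. Medians were -0.24 for astrocyte, -0.21 for endothelial, -0.12 for microglial and -0.11 for pericyte markers. Those of fibroblast (0.09) and pan-neuronal (0.28) markers lay above 0, beside 0.01 over all tested genes. Its neuronal markers, given above, moved with these values, and their part in the result was not tested.

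Without KO replicate 2 the precursor median was -0.11 and the committed-stage median -0.15, and 8 of 10 members were below 0. Bcas1 then measured above 0 at log2 0.11 and Fyn at 0.01, while Pdgfra measured -0.11 and C1ql1 -0.11. Gpr17 (-0.47) and Enpp6 (-0.47) stayed close to their values with all libraries. They were the 2 members with an unadjusted p under 0.05 and lower in KO, against 5.98% of all tested genes in that fit.

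Without KO replicate 1, the library with Xist, all 10 members were below 0 and 5 of 10 were lower at an unadjusted p under 0.05, against 6.33% of all tested genes. The 5 were Pdgfra (log2 -0.31), C1ql1 (-0.34), Neu4 (-0.44), Gpr17 (-0.44) and Enpp6 (-0.48), and 0 of 10 passed the limma adjustment (lowest adjusted p = 0.299). The medians were then -0.29 for precursor and -0.34 for committed-stage genes. Without WT replicate 1 the committed-stage median was -0.36, and the precursor median -0.24.

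**Figure D4:**
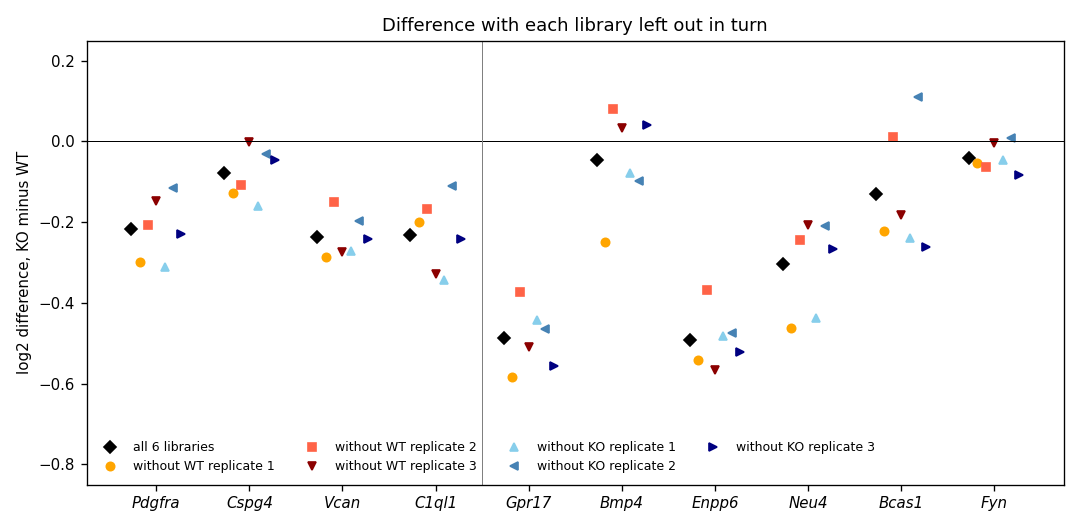
Log2 difference (KO minus WT, vertical axis) for each gene with all 6 libraries and with each library left out in turn; precursor genes are left of the grey line. Gpr17 and Enpp6 stay between -0.58 and -0.37 in each of these fits, while Bmp4, Bcas1 and Fyn have values on either side of 0.

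Other genes of the same stages gave a mixed picture. Of 14 further precursor genes 10 were below 0, with a median log2 difference of -0.13. At an unadjusted p under 0.05, 4 were lower and 1 higher, against 6.85% and 8.36% of all tested genes. The lower ones were Megf11 (-0.36), the receptor phosphatase gene Ptprz1 (-0.30), the protocadherin gene Pcdh15 (-0.35) and the transcription factor gene Sox6 (-0.31). Of 15 further committed-stage genes 13 were below 0, with a median of -0.19, and at the same threshold 2 were lower and 0 higher. Leaving out KO replicate 2 gave a median of -0.09 there, and leaving out WT replicate 2 or WT replicate 3 gave -0.11 each. One was the long noncoding RNA 9630013A20Rik, known from newly formed oligodendrocytes. In WT it stood at 1.12, 2.04 and 1.13 FPKM, and in KO at 0.607, 0.276 and 0.624 (log2 -0.93 ± 0.24, limma adjusted p = 0.210). The groups did not overlap, and the values rest on 14 to 103 reads per library. The other was Tcf7l2 (log2 -0.49 ± 0.15, limma adjusted p = 0.243), a Wnt pathway factor that thalamic neurons also use. None of these 29 genes passed the adjusted threshold.

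The lineage transcription factors Sox10 (23.6 ± 1.95 FPKM over WT and 17.7 ± 2.33 over KO) and Olig1 (95.7 ± 20.9 and 60.1 ± 12.2 FPKM) did not overlap between groups and did not pass (limma adjusted p = 0.223 and 0.243). Over the 7 factors the median log2 difference was -0.25, and 6 were below 0; without KO replicate 2 that median was 0.00. Olig2, which both precursors and mature cells use, had a log2 difference of -0.25 ± 0.21 with overlapping groups.

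**Figure D5:**
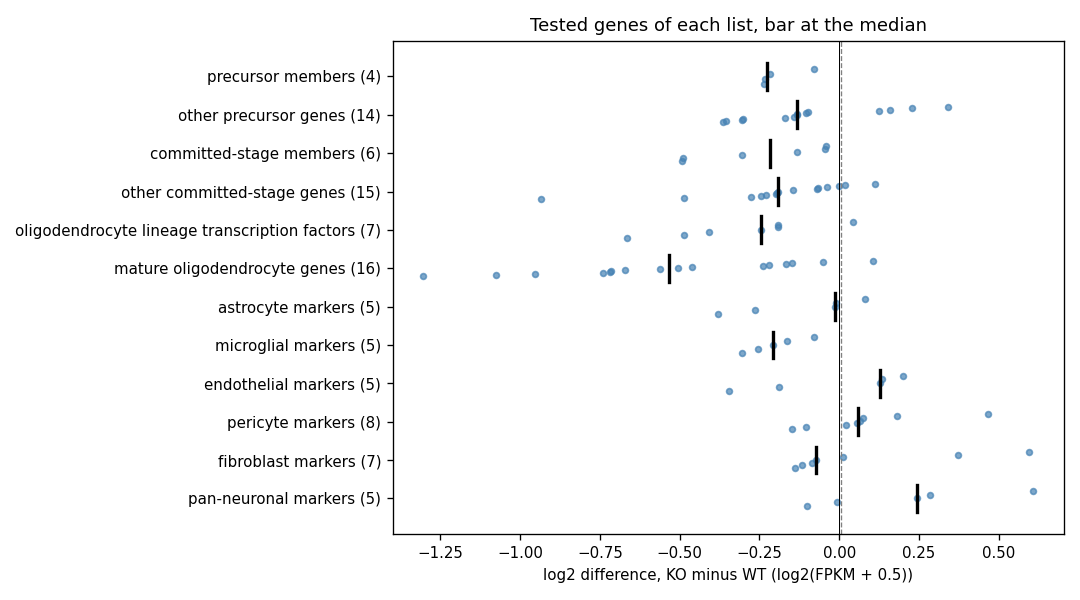
Log2 difference (KO minus WT) of each tested gene in the 6 lineage lists and in 6 marker lists of other cell types, with a bar at each list's median and the number of tested genes in brackets. Of these 12 lists, mature oligodendrocyte genes have the lowest median (-0.53) and pan-neuronal markers the highest (0.24), with precursor and committed-stage members at -0.22; hypothalamic (-1.67) and pallial excitatory (1.89) neuron markers are not drawn.

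None of the ligands and partners of the precursor genes passed the adjusted threshold. Pdgfa, the main ligand of the receptor that Pdgfra encodes, measured 12.2 ± 0.938 FPKM over WT and 11.1 ± 1.32 over KO. The 5 tested PDGF ligands and receptors had a median log2 difference of 0.06, and 0 reached an unadjusted p under 0.05. The lecticans and matrix partners are the family and binding partners of versican. Of 12 tested, 1 was lower at that threshold and 0 higher, against 6.85% and 8.36% of all tested genes. It was Adamts4, which encodes a protease that cleaves lecticans and is made by oligodendrocytes (8.95 ± 1.41 FPKM over WT and 5.68 ± 0.871 over KO, groups not overlapping, limma adjusted p = 0.204). Brevican, encoded by Bcan, had a log2 difference of -0.17. The 5 tested C1q-like genes and receptors had a median log2 difference of 0.21. At an unadjusted p under 0.05, 2 of the 5 were higher and 0 lower, against 8.36% and 6.85% of all tested genes. Without overlap 3 were higher, against 11.8% of all tested genes. C1ql3, a relative of C1ql1, was higher in every KO library (2.62 ± 0.575 and 3.99 ± 0.705 FPKM, limma adjusted p = 0.257). Adgrb2, of the adhesion receptor family to which C1q-like proteins bind, had a log2 difference of 0.30 ± 0.11. Its relatives Adgrb1 and Adgrb3 each had 0.21 ± 0.10, with overlapping groups for Adgrb3. C1ql2 was the 1 gene of the 5 below 0 (-0.38), with overlapping groups.

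BMP signalling genes split evenly around 0, with 12 of 25 tested genes below and a median log2 difference of 0.00. At an unadjusted p under 0.05, 4 were lower and 2 higher, against 6.85% and 8.36% of all tested genes. The type I receptor genes Bmpr1a (13.9 ± 0.286 FPKM over WT and 11.5 ± 0.964 over KO) and Bmpr1b (6.25 ± 0.322 and 4.96 ± 0.340 FPKM) were lower without overlap, as was the BMP antagonist gene Grem1 (log2 -0.61 ± 0.13). The fourth lower gene was Smad5 (-0.22), a transducer of BMP signals, and the higher genes were Bmp3 and the antagonist gene Chrd (0.31). The ligand gene Bmp3 measured 0.235 ± 0.0362 FPKM over WT and 0.697, 1.43 and 0.626 in the single KO libraries, with KO replicate 2 highest. None of the 25 passed the adjusted threshold.

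Relatives of the committed-stage enzymes differed from the members in places. Of 4 tested ENPP genes, Enpp2, which encodes autotaxin and is made by oligodendrocytes and choroid plexus, measured 45.5 ± 4.94 FPKM over WT and 26.2 ± 3.63 over KO (limma adjusted p = 0.184), and Enpp4 11.1 ± 0.971 and 9.18 ± 0.195 FPKM. Enpp5 had a log2 difference of 0.10. Among the sialidase genes, Neu2 was higher in every KO library (1.81 ± 0.204 and 2.63 ± 0.417 FPKM, limma adjusted p = 0.245), and Neu1, the lysosomal enzyme, was at 12.1 ± 0.899 and 12.1 ± 0.785 FPKM. Of the kinases related to Fyn, Src was higher in every KO library (20.4 ± 0.830 and 24.6 ± 1.17 FPKM) and Yes1 lower in every one (2.94 ± 0.351 and 2.06 ± 0.343 FPKM), with limma adjusted p of 0.219 and 0.246. P2ry12, a microglial purine receptor gene related to Gpr17, had overlapping groups (log2 -0.30 ± 0.18).

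Markers of the other cells that use these genes were measured beside them. All 8 fibroblast markers were above 0 in every library, and WT replicate 1 was the lowest library for each of the 8. They summed to 6.90, 16.2 and 25.1 FPKM in WT and 16.8 to 18.0 FPKM in KO. All 8 pericyte markers were likewise above 0 and summed to 75.9 to 98.5 FPKM in WT and 85.3 to 98.3 FPKM in KO, and the 5 endothelial markers to 93.3 to 117 FPKM and 91.2 to 110 FPKM. The 5 pan-neuronal markers summed to 557 to 635 FPKM in WT and 632 to 721 FPKM in KO. Astrocyte markers summed to 182 to 200 FPKM in WT and 156 to 196 FPKM in KO, and microglial markers to 136 to 156 FPKM and 122 to 148 FPKM. The 5 microglial markers had a median log2 difference of -0.21, near that of the members, and 5 of 5 were below 0. At an unadjusted p under 0.05, 2 of them were lower, Cx3cr1 (-0.16) and Tmem119 (-0.26), without overlap between the groups. Of all tested genes, 6.85% were lower at that p and 10.8% lower without overlap. The part of these cells in the values of Pdgfra, Cspg4, Bmp4 and Fyn was not tested. Of 8 cell cycle genes 2 passed the filter on low values, Pcna (log2 0.04) and Mcm2 (0.00).

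Some members share their locus with genes on the opposite strand, and the labels do not say whether counting used strand. Gpr17 lies within the span of Lims2, which had 138 to 279 reads per library, against 712 to 1235 for Gpr17. Lims2 measured 4.93 ± 0.754 FPKM over WT and 4.15 ± 1.12 over KO, with overlapping groups. It is also counted among the further committed-stage genes above. The overlapping genes of the other members had at most 37 reads in any library, for Bcas1os2 at the Bcas1 locus.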

How the data were processed

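RNA sequencing libraries of 3 WT and 3 KO samples were analysed. The authors deposited 1 table of FPKM values for 54532 genes, with gene coordinates and lengths. Per the submitters' processing notes the build was GRCm38 (mm10). Aligner, counting program and annotation: not given in the sources used here. All sample columns matched a sample by name, with 0 left over. FPKM times gene length gave whole reads for 100% of nonzero values within 0.01 of a read. Those reads give the depths and the exact 95% Poisson intervals, which cover counting error only, since reads carry no molecular identifiers.

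The test was limma 3.58.1 in R 4.3.3 (trend and robust empirical Bayes) on log2(FPKM + 0.5), which understates differences of low genes. It covered genes whose mean reached 0.5 FPKM, two-sided, with Benjamini-Hochberg adjustment over all of them at 0.05. It was checked on simulated reads, which had the same added spread for all genes and no differences of tissue between libraries. There it found 95 of 100 changes of 2-fold, with 15 false calls. With no change planted it made 4 calls. The simulation does not cover the differences between libraries seen here. The labels say no more than the number of each mouse, so the p-values reflect only the spread among these samples, which may be technical. Each replicate in turn was left out, and other pseudocounts, filters, scalings, weights, a replicate block and voom on the recovered reads were tried.

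Members and lists were chosen with earlier results of these data known. The text names all members, Cntnap4, up to 4 genes of a list with the smallest p, and for each stage the 4 protein-coding genes of at least 5 FPKM with the nearest profile. Xist, Mbp, Mobp, Apod, Smad5, Chrd, Lims2 and Bcas1os2 fall outside this rule and were chosen after their values were seen. A planned search of promoter motifs was not analysed here. One gene of the further precursor list is not reported here by name or value.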

Additional observations from a re-analysis of the deposited data

How the results depend on the processing

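No member passed the adjusted threshold under any of the 17 alternatives, where the lowest adjusted p of any member was 0.124 (voom, limma). The precursor median log2 difference ranged from -0.29 to -0.11 and the committed-stage median from -0.36 to -0.13. The committed-stage minus precursor difference of medians, 0.01 with all libraries, ranged from -0.11 to 0.09 over the alternatives, and from -0.11 (without WT replicate 1) to 0.016 with 1 library left out. Gpr17, Enpp6, Pdgfra, Cspg4, Vcan, C1ql1 and Neu4 were below 0 in every fit that tested them. With 1 library left out, Bmp4 ranged from -0.25 to 0.080, Bcas1 from -0.26 to 0.11 and Fyn from -0.082 to 0.0077. The sign turned for Bmp4 without WT replicate 2, WT replicate 3 or KO replicate 3, for Bcas1 without WT replicate 2 or KO replicate 2, and for Fyn without KO replicate 2 or with array quality weights (0.013), and the cause was not tested. At a filter of 5 FPKM, 5 members remained in the test. 

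Over all genes, 2 passed. The count was 0 with a pseudocount of 0.1, no filter, a filter of 5 FPKM, the replicate block or voom, 1 with quantile normalization and 5 with an equal FPKM sum. It was 0 to 9 with 1 library left out, with 9 without KO replicate 1. Same-numbered WT and KO samples did not deviate together (correlations of deviations across genes of -0.09, -0.14 and -0.07), and no sample correlated best with its own number, so the replicate number was not taken as a pairing. With the replicate block 1664 genes had an unadjusted p under 0.05, against 2457 without it, and Gpr17 and Enpp6 were again the 2 members among them. Reads limit Bmp4 most, with 34 to 71 per library.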

Other observations

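The genes outside the members whose centred log2 values lay nearest to the mean precursor profile over the 6 libraries were Ctsd, Acsbg1, Necap2 and Rpl22l1, out of 7708 protein-coding genes of at least 5 FPKM. Their root mean square differences from the profile were 0.017, 0.029, 0.032 and 0.033 on the log2 scale, whereas those of the precursor members themselves were 0.073 (Pdgfra) to 0.11 (C1ql1). Ctsd, which encodes the lysosomal protease cathepsin D, measured 95.3 ± 4.26 FPKM in WT and 85.2 ± 10.1 in KO. For the committed-stage profile the nearest were Krcc1, Wbp1, Nadk2 and Ctso, at 0.046 to 0.060, against 0.13 (Neu4) to 0.20 (Bcas1) for the members. The outside genes named are the nearest of 7708 by selection. The members were not selected by nearness, and several lie below 5 FPKM, so the smaller differences of the outside genes say nothing about the members. A member's own value enters its stage profile, and each profile is a mean over genes that differ among themselves, so likeness over 6 libraries is a description only.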
